A study of Mus musculus with 9 samples.

Results

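The genes described here are 38 genes that mark monocytes and macrophages or serve their functions, out of 54532 genes in a table of RNA-sequencing values from mouse skin. They were taken by gene symbol, in all 9 libraries, without a filter on measured values. The list was, however, chosen with earlier results of these data known. All 38 symbols were found, and each is counted once.

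The libraries came from skin biopsies of mice, all labelled WT, in 3 groups of 3. The control group was healthy mice. The bleomycin group received bleomycin, a DNA-damaging drug used to provoke skin fibrosis that serves as a model of systemic sclerosis, and the third group received bleomycin together with topical nitrate (called nitrate below). The question was how nitrate alters gene expression in bleomycin-treated skin. How much of each agent was used, for how long, in which strain and sex, and how many mice a library stands for are not given in the sources used here. P-values therefore measure only the spread between libraries, which may be technical.

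Macrophages of the skin derive both from long-lived resident cells of the dermis and from monocytes that enter from the blood during injury. The growth factors Csf1 and Il34 keep both alive through the receptor Csf1r. They engulf dead cells, microbes and immune complexes through Fc receptors, lectins and scavenger receptors, and they make complement C1q, lysozyme and lysosomal proteases. In wounded or fibrotic skin they are known both to feed inflammation and to exchange signals with fibroblasts.

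Values are FPKM (fragments scaled by gene length and library size), so levels can be compared between genes, and 3 values in a row stand for libraries 1, 2 and 3 of a group. Whole reads recovered from the FPKM values ran from 15804050 to 18352592 per library. All of 8 keratinocyte markers, which define skin, were measured, with a summed FPKM of 2444 to 4277 in the controls, 6867 to 10096 after bleomycin and 5155 to 8282 with nitrate. Of the 38 genes, 37 reached 1 FPKM in at least 3 of the 9 libraries and were tested, none of them through 1 group alone. The exception was Marco, a scavenger receptor gene of alveolar and splenic macrophages, with 0, 2 and 0 reads in the controls, 1, 1 and 13 after bleomycin and 2, 0 and 0 with nitrate, where a count of 0 allows up to 3 reads. Library make-up differed as well. The mean log2(FPKM + 1) of 12 markers of the growing hair follicle was 0.20, 4.09 and 6.20 in the controls, 1.52, 5.83 and 7.16 after bleomycin and 8.11, 6.0 and 8.72 with nitrate, so that control 1 and bleomycin 1 stood apart at the low end, a split that the groups did not explain. Among 6 skeletal muscle genes the same mean was 10.33, 10.96 and 10.25 in the controls, 9.99, 7.72 and 8.84 after bleomycin and 7.64, 9.03 and 7.35 with nitrate, and among 9 mitochondrially encoded genes it was 11.46, 11.31 and 11.49 in the controls, 10.28, 10.10 and 10.09 after bleomycin and 10.21, 10.42 and 9.69 with nitrate. Both of these means were lower in every bleomycin and nitrate library than in any control, and 6 of the 9 mitochondrially encoded genes fell with bleomycin against control and 8 with nitrate against control in limma. The part these differences play in the results below was not tested.

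With bleomycin 8 of the 37 genes tested rose against control skin and none fell. The rises with the smallest adjusted p were those of the fungal receptor genes Clec4n and Clec7a, followed by Trem2, Fcgr2b, Lyz2, Tyrobp, Cd14 and Fcgr3. These 8 passed the test in limma at a Benjamini-Hochberg adjusted p under 0.05, against 8.43% of all 14645 genes tested (4.74% as higher, 3.69% as lower). The median log2 difference of the 37 genes was 1.04, beside 0.01 over all genes. Estimates lay above 0 for 31 of the 37 (51.6% of all genes). In 24 of the 37 every bleomycin library lay above every control library, against 18.4% of all genes, and in 1, the haemoglobin scavenger gene Cd163, every bleomycin library lay below (17.3% of all genes). In whole skin, more cells of this type, more RNA per cell and RNA from other cells that express these genes cannot be told apart.

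Markers of other skin cells moved in the same comparison. Of 8 fibroblast markers 3 fell with bleomycin, the median estimate was -1.04, and the summed FPKM was 4742 to 6109 in the controls, 1658 to 2606 after bleomycin and 1601 to 2416 with nitrate. Of 6 endothelial markers 1 fell, with sums of 133 to 152, 84 to 99.2 and 52.8 to 97.8 in the same order. None of 6 fat cell markers was called with bleomycin in limma (2 lower at an unadjusted p under 0.05), with sums of 357 to 577, 213 to 248 and 67.7 to 225. Against control, 3 fibroblast, 3 endothelial and 4 fat cell markers fell with nitrate. Of 9 immediate early genes, which cells switch on within minutes of a stimulus or of handling, 2 rose with bleomycin, and their sums were 252 to 298, 357 to 1283 and 343 to 352. The part of these lists in the values of the 38 genes was not tested.

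Leaving out control 1 and bleomycin 1 together left 2 of the 8 calls, Clec4n and Clec7a, with a median of 1.36 over the 37 genes. Those 2 genes kept their calls without each of the 9 libraries in turn (highest limma adjusted p = 0.0167 and 0.0488). Trem2 lost its call without control 2 (0.0577). Leaving out any 1 control or bleomycin library ended the calls of Fcgr2b (0.0657 to 0.0816), Lyz2 (0.0511 to 0.0864), Cd14 (0.0518 to 0.137) and Fcgr3 (up to 0.145), and Fcgr3 also lost its call without nitrate 2 (0.0543). Tyrobp lost its call without any of those except control 1 (0.0563 to 0.138). The count ran from 2 without control 2 to 13 without nitrate 1. The share of all genes called in these fits is not given here, so the counts are a description only.

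With nitrate, most of these genes were measured below the level of bleomycin alone, but no difference passed the test. None of the 37 genes was called in limma, and none of all 14645 (0%), so no gene named here can be said to have fallen. The estimate lay below 0 for 34 of the 37 (50.4% of all genes), with a median log2 difference of -1.46 beside -0.00 over all genes, and 28 had an unadjusted p under 0.05 as lower against 10.4% of all genes. In 25 of the 37 every nitrate library lay below every bleomycin library, against 11.8% of all genes, and none had every nitrate library above (9.40% of all genes). Both comparisons use the bleomycin libraries, so a gene that is high there enters both. Without nitrate 1, the nitrate library highest in 33 of the 37 genes, 4 genes were called lower: Fcgr3, Fcgr2b, Clec4n and Ms4a6c. Nitrate 1 was the highest nitrate library in each of these, so leaving it out lowers their nitrate mean. The share of all genes called in that fit is not given here, so these 4 calls are a description only. A fit of voom weights to recovered reads called 0.

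Against control skin, nitrate skin gave a call for 1 of the 37 genes. Clec4n was called higher in limma and none was called lower, against 8.53% of all genes (3.63% as higher and 4.90% as lower). The median log2 difference was -0.37 beside 0.02 over all genes, and 29 of 37 estimates lay below 0 (48.1% of all genes). The groups did not overlap for 3 genes that were higher with nitrate (Clec4n, Apoe and Gpnmb) and for 3 that were lower (Cd163, Folr2 and F13a1), against 17.3% and 17.5% of all genes. This comparison shares the controls with the first and the nitrate libraries with the second.

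**Figure D1:**
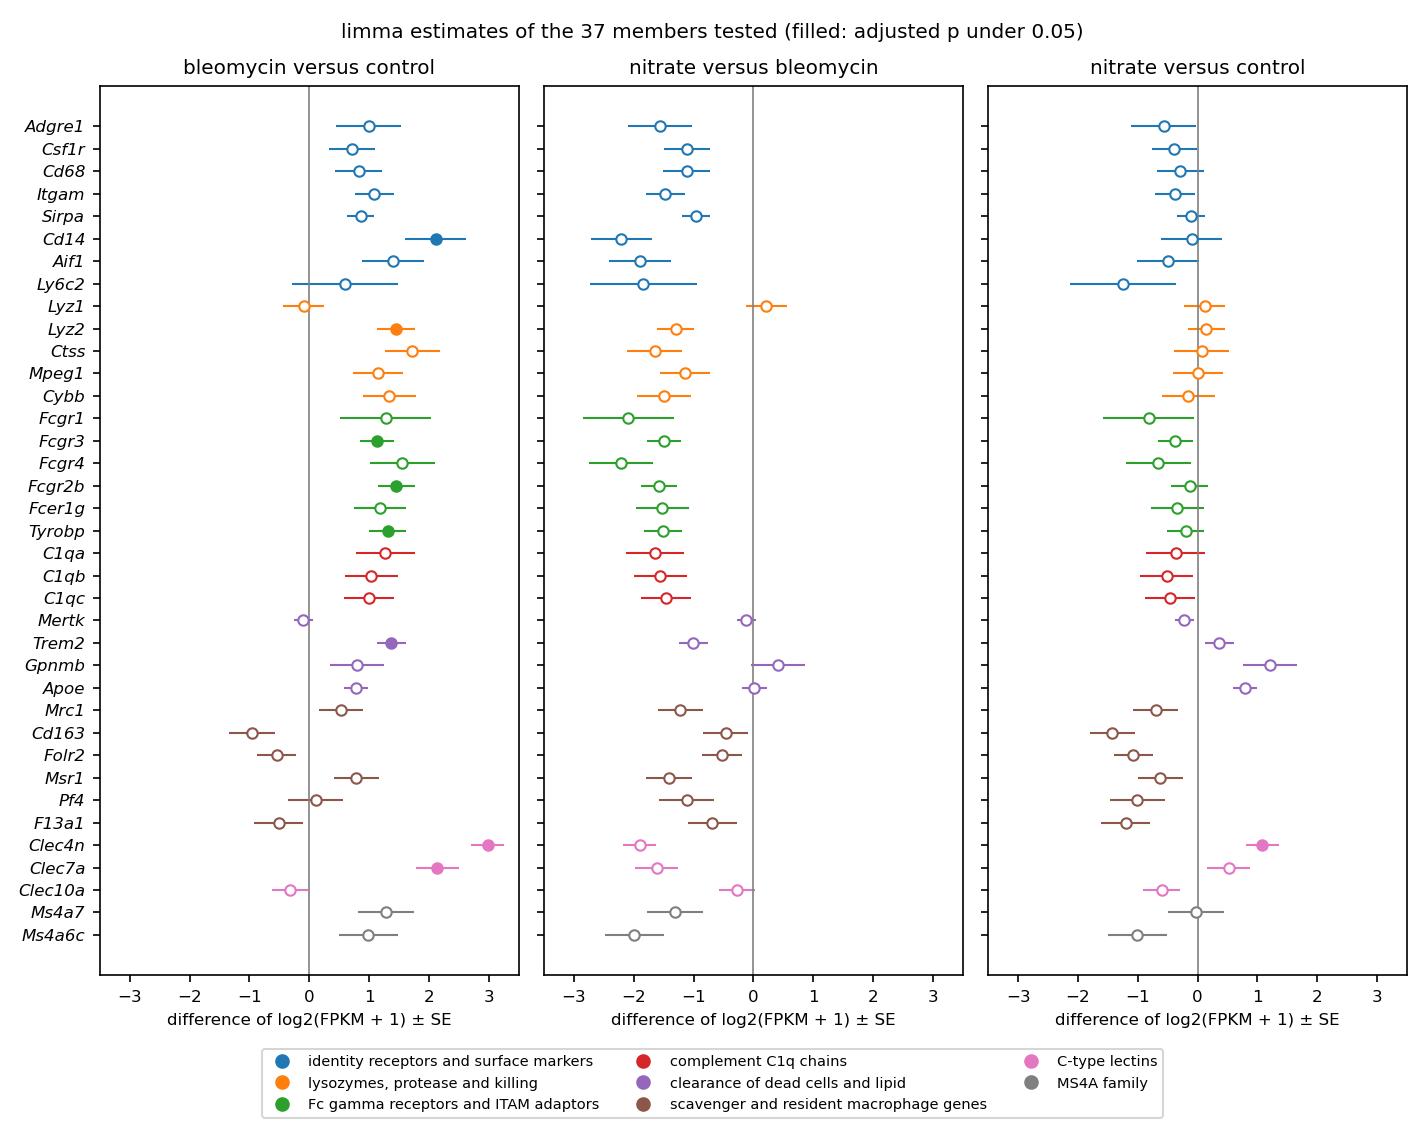
Log2 differences of the 37 tested genes with their standard errors in the 3 comparisons, from limma on log2(FPKM + 1) with 3 libraries a group; filled points have an adjusted p under 0.05. In the left panel 31 of 37 estimates lie above 0 and 8 are filled, in the middle panel 34 lie below 0 and none is filled, and in the right panel only Clec4n is filled.

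Among the 37 genes, the largest log2 differences between bleomycin and control skin were those of the C-type lectin genes Clec4n and Clec7a. Clec4n encodes dectin-2, a receptor for fungal mannans, and stood at 2.99, 2.76 and 1.78 in the controls, 22.8, 27.3 and 29.7 after bleomycin and 8.63, 7.84 and 3.66 with nitrate. Every bleomycin library was above every nitrate library, and every nitrate library was above every control. Clec4n rose by 2.98 ± 0.28 (SE) on the log2 scale with bleomycin (limma adjusted p = 0.00253), and its estimate for nitrate against bleomycin was -1.90 ± 0.28, limma adjusted p = 0.0619. Nitrate against control gave 1.08 ± 0.28, limma adjusted p = 0.0481, a call that was lost in 8 of the 9 fits that left out 1 library (0.0618 to 0.132) and held without nitrate 3 (0.0288).

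Clec7a encodes dectin-1, the receptor for fungal beta-glucan, and measured 2.48, 4.44 and 2.81 in the controls, 10.5, 23 and 21.3 after bleomycin and 6.73, 6.29 and 2.79 with nitrate. The bleomycin libraries did not overlap the others, while the lowest nitrate library lay among the controls. Clec7a rose by 2.14 ± 0.36 with bleomycin (limma adjusted p = 0.0129) and its difference of nitrate from bleomycin was -1.62 ± 0.36, limma adjusted p = 0.117. Clec10a, a lectin for terminal galactose sugars carried by dermal macrophages and dendritic cells, measured 9.45, 12.6 and 5.99 in the controls, 6.96, 5.02 and 9.58 after bleomycin and 7.82, 5.25 and 4.17 with nitrate. Its groups overlapped in every comparison, and its estimate for bleomycin against control was -0.32 ± 0.31, limma adjusted p = 0.531. A share of 9.24% of the 50-base windows of the Clec10a transcripts also occurs in other genes, mostly the neighbouring lectin gene Mgl2.

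Among the Fc gamma receptors, which bind antibody on engulfed particles, the inhibitory receptor Fcgr2b and the activating receptor Fcgr3 rose with bleomycin. Fcgr2b measured 8.49, 9.26 and 6.99 in the controls, 25.3, 26 and 21.4 after bleomycin and 12.1, 8.21 and 3.95 with nitrate. The bleomycin libraries lay well clear of the others, and the nitrate libraries spanned the controls. Fcgr2b rose by 1.45 ± 0.31 with bleomycin (limma adjusted p = 0.0270), and with nitrate the difference from bleomycin was -1.58 ± 0.31, limma adjusted p = 0.0942. Without nitrate 1 that difference was -1.90, limma adjusted p = 0.0479.

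Fcgr3 measured 24.5, 21 and 19.4 in the controls, 48.2, 43 and 54.6 after bleomycin and 26.4, 16.4 and 10.1 with nitrate. Again the bleomycin libraries did not overlap either other group. Fcgr3 rose by 1.13 ± 0.29 (limma adjusted p = 0.0467), its difference of nitrate from bleomycin was -1.50 ± 0.29, limma adjusted p = 0.0938, and without nitrate 1 that difference was -1.83, limma adjusted p = 0.0388. Fcgr3 shares 10.2% of its 50-base windows, and Fcgr2b 6.72%, with other genes, chiefly each other, so reads of these could have been split between them. The activating receptor Fcgr4 measured 10.4, 2.70 and 4.72 in the controls, 22.5, 11.6 and 19.5 after bleomycin and 7.51, 1.83 and 1.55 with nitrate. Its bleomycin libraries lay above all others by a small margin over control 1, and its estimates were 1.55 ± 0.54, limma adjusted p = 0.114 for bleomycin against control and -2.21 ± 0.54, limma adjusted p = 0.126 for nitrate against bleomycin. Fcgr1, the receptor of highest affinity, measured 17, 3.42 and 4.18 in the controls, 19.7, 12.2 and 20.5 after bleomycin and 12.8, 1.71 and 1.01 with nitrate, and control 1 lay within the range of the bleomycin libraries (1.28 ± 0.76, limma adjusted p = 0.319).

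The level of Fcgr4 relative to Fcgr2b, the activating over the inhibitory receptor, was 1.22, 0.291 and 0.674 in the controls, 0.891, 0.447 and 0.909 after bleomycin and 0.622, 0.222 and 0.392 with nitrate. The groups overlapped, and the spread within the controls was as wide as that between groups.

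Activating receptors of macrophages can signal through small adaptors with activation motifs. Tyrobp, the adaptor of Trem2 and other receptors, measured 47.8, 31.6 and 28.5 in the controls, 81.3, 69.6 and 122 after bleomycin and 42.1, 32.7 and 20.4 with nitrate. Its bleomycin libraries did not overlap the others. Tyrobp rose by 1.31 ± 0.31 with bleomycin (limma adjusted p = 0.0395), and its difference of nitrate from bleomycin was -1.51 ± 0.31, limma adjusted p = 0.103. Fcer1g, the common gamma chain of Fc receptors in macrophages and mast cells, measured 70.6, 31.2 and 23.2 in the controls, 79, 68 and 118 after bleomycin and 46.6, 26.3 and 20.3 with nitrate. Control 1 overlapped the bleomycin libraries (1.18 ± 0.44, limma adjusted p = 0.131), whereas the nitrate libraries lay below all of them (-1.52 ± 0.44, limma adjusted p = 0.145).

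**Figure D2:**
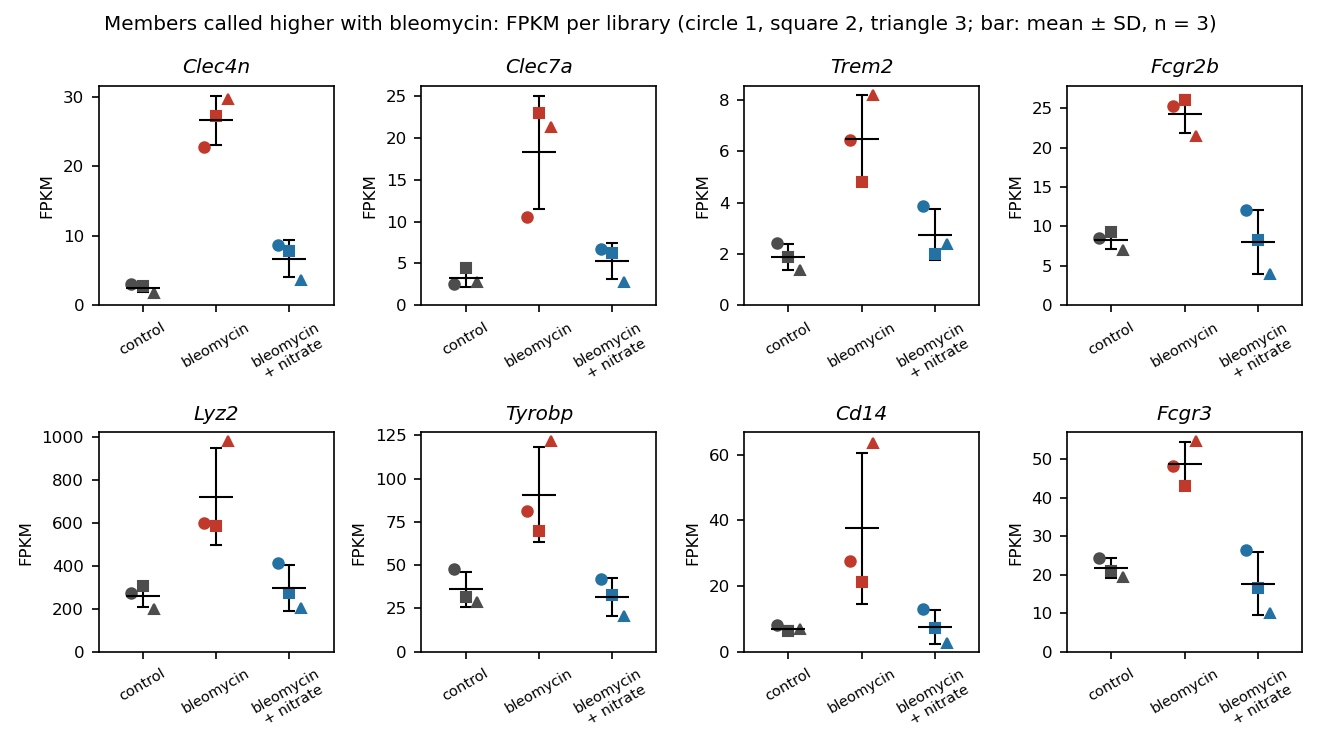
FPKM of the 8 genes called higher with bleomycin, 1 point per library (circle 1, square 2, triangle 3), with the mean and SD of each group of 3. In all 8 panels the bleomycin points lie above all control points, and the nitrate points lie below all bleomycin points.

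Lyz2 and Lyz1 are neighbouring lysozyme genes on chromosome 10. Lyz2 encodes the lysozyme of macrophages and neutrophils, and Lyz1 that of intestinal Paneth cells. Their coding sequences are the same length, 447 bases, and 95.1% identical with 22 mismatches. The stretches below show how alike the genes are, since that limits how well reads tell them apart: bases 1 to 120 of the coding sequence from the GENCODE transcripts of GRCm38, with the 11 mismatches in capitals.
Lyz1: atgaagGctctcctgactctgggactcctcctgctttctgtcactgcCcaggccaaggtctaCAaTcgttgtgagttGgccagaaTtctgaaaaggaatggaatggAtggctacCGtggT
Lyz2: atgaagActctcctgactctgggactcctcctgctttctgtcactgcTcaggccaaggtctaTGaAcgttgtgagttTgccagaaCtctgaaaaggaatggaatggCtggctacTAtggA
Of all 50-base windows of their transcripts, 16.1% for Lyz1 and 15.4% for Lyz2 occur in the other gene.

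Lyz2 was among the most abundant of the 38 genes, at 275, 305 and 201 in the controls, 602, 585 and 983 after bleomycin and 415, 274 and 202 with nitrate. Every bleomycin library exceeded every other library. Lyz2 rose by 1.45 ± 0.31 with bleomycin (limma adjusted p = 0.0284), and its difference of nitrate from bleomycin was -1.30 ± 0.31, limma adjusted p = 0.124. Lyz1 stood far lower, at 6.68, 9.23 and 5.01 in the controls, 4.42, 4.80 and 11.3 after bleomycin and 5.74, 9.98 and 7.12 with nitrate, and its groups overlapped throughout (-0.10 ± 0.34, limma adjusted p = 0.886 for bleomycin against control). The ratio of Lyz1 to Lyz2 was 0.0243, 0.0303 and 0.0249 in the controls, 0.00735, 0.00821 and 0.0115 after bleomycin and 0.0138, 0.0365 and 0.0352 with nitrate. It was lower in every bleomycin library than in any other library.

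The start regions of these genes are shown because both hold the same short motif of the kind bound by PU.1 (Spi1), the lineage factor of macrophages. Fcgr4 and C1qb are added as members of other functions that also hold it. Each line gives the 150 bases before the RefSeq transcript start, 5′ to 3′ on the gene's strand, with ACTTCCT in capitals (the reverse complement of AGGAAGT).
Lyz2: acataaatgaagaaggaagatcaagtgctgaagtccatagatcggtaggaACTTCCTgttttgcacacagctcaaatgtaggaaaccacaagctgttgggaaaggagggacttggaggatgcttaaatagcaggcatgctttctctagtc
Lyz1: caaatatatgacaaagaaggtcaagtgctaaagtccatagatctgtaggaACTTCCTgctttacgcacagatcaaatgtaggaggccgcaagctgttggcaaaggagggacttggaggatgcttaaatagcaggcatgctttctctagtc
Fcgr4: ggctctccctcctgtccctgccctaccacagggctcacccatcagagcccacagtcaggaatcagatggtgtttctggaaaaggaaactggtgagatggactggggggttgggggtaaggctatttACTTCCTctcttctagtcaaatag
C1qb: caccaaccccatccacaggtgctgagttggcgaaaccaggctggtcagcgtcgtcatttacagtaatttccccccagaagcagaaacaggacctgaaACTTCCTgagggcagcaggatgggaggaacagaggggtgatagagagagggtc
The coordinates, on GRCm38.p6, are chr10:117282273-117282422 on the minus strand, chr10:117292869-117293018 on the minus strand, chr1:171018776-171018925 on the plus strand and chr4:136886201-136886350 on the minus strand. The motif begins at -100 from the start in both lysozyme genes, at -24 in Fcgr4 and at -53 in C1qb. The lysozyme stretches were identical at 129 of 150 positions (86.0%).

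RefSeq start regions, 250 bases before to 50 after, were matched for 29 of the 38 genes. Either strand of AGGAAGT was present in 13 of these 29 (44.8%), namely C1qb, C1qc, Ctss, F13a1, Fcgr1, Fcgr4, Folr2, Ly6c2, Lyz1, Lyz2, Mrc1, Ms4a6c and Pf4, beside 10.7% of all 27025 genes in the table of start regions. Not matched were Clec4n, Tyrobp, Cd14, Adgre1, C1qa, Msr1, Csf1r, Sirpa and Clec10a. Of the 13, Lyz2 was called with bleomycin, 10 had estimates above 0, and the 3 below 0 were Lyz1, F13a1 and Folr2 (-0.10, -0.51 and -0.55). Of the 15 tested genes matched without the motif, 13 had estimates above 0 and 4 were called higher.

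Ctss, the lysosomal protease that trims the invariant chain of MHC class II, measured 122, 51.2 and 53.3 in the controls, 191, 201 and 318 after bleomycin and 134, 65.4 and 44 with nitrate. The bleomycin libraries lay above all others (1.72 ± 0.46, limma adjusted p = 0.0560), and the difference of nitrate from bleomycin was -1.65 ± 0.46, limma adjusted p = 0.140. Cybb encodes the catalytic subunit of the phagocyte NADPH oxidase and measured 10.2, 7.77 and 4.89 in the controls, 17.4, 18.6 and 25 after bleomycin and 14.3, 5.84 and 3.01 with nitrate. Its bleomycin libraries also lay above the others, without passing the test (1.34 ± 0.45, limma adjusted p = 0.105), and nitrate against bleomycin gave -1.49 ± 0.45, limma adjusted p = 0.155. Mpeg1, the pore-forming protein of phagosomes, measured 44.3, 22.3 and 17.2 in the controls, 51.6, 51.7 and 75 after bleomycin and 42.1, 26.9 and 15 with nitrate. The bleomycin libraries cleared control 1, the highest control, by a small margin (1.15 ± 0.42, limma adjusted p = 0.126), and nitrate against bleomycin gave -1.15 ± 0.42, limma adjusted p = 0.206.

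Of the 8 identity receptors and surface markers, Cd14 was called. Cd14, the co-receptor for bacterial lipopolysaccharide, measured 7.99, 6.28 and 6.77 in the controls, 27.7, 21.1 and 63.7 after bleomycin and 12.9, 7.19 and 2.64 with nitrate. The controls lay close together, every bleomycin library was above every other library, and bleomycin 3 was the highest by far. Cd14 rose by 2.11 ± 0.51 with bleomycin (limma adjusted p = 0.0405), and its difference of nitrate from bleomycin was -2.21 ± 0.51, limma adjusted p = 0.121.

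Csf1r, Adgre1 and Cd68, the genes most used to identify macrophages, were not called. Csf1r, the receptor for the growth factors Csf1 and Il34, measured 29.4, 30.8 and 19.9 in the controls, 48.1, 34.7 and 50.4 after bleomycin and 34.5, 21.6 and 10.3 with nitrate. The bleomycin libraries lay above the controls and, by a narrow margin over nitrate 1, above the nitrate libraries (0.72 ± 0.38, limma adjusted p = 0.268 and -1.11 ± 0.38, limma adjusted p = 0.191). Adgre1, the adhesion receptor that defines mouse macrophages, measured 25.4, 20.9 and 15.8 in the controls, 41, 27.8 and 62 after bleomycin and 34.5, 10.4 and 6.39 with nitrate. Bleomycin 2 lay below nitrate 1, and neither comparison passed the test (0.99 ± 0.54, limma adjusted p = 0.276 and -1.56 ± 0.54, limma adjusted p = 0.190). Cd68, a glycoprotein of the lysosome membrane, measured 64.7, 25.8 and 24.1 in the controls, 54.5, 57.2 and 74.8 after bleomycin and 42.8, 24 and 21.1 with nitrate, with control 1 inside the bleomycin range (0.82 ± 0.39, limma adjusted p = 0.222) and the nitrate libraries below all bleomycin libraries (-1.11 ± 0.39, limma adjusted p = 0.198).

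Itgam, the alpha chain of an integrin of monocytes, macrophages and neutrophils, measured 2.73, 1.29 and 1.03 in the controls, 4.14, 3.73 and 5.87 after bleomycin and 2.18, 0.598 and 0.544 with nitrate. The groups did not overlap between bleomycin and either other group (1.09 ± 0.33, limma adjusted p = 0.0830 and -1.47 ± 0.33, limma adjusted p = 0.119). Most of the Itgam windows of 50 bases (68.5%) also occur in the overlapping gene model Gm49368, which was listed at 0 in 8 libraries and at 0.0120 in bleomycin 2. Aif1, the actin-binding protein Iba1, measured 10.7, 4.23 and 2.70 in the controls, 13.8, 11 and 22.5 after bleomycin and 7.47, 2.32 and 1.92 with nitrate. Control 1 came within reach of the lowest bleomycin library without overlap (1.40 ± 0.52, limma adjusted p = 0.131 and -1.89 ± 0.52, limma adjusted p = 0.138). Sirpa, the inhibitory receptor for Cd47, measured 26.5, 19.7 and 17.8 in the controls, 35.4, 37.4 and 44.2 after bleomycin and 28, 17.1 and 15.3 with nitrate. Its groups did not overlap between bleomycin and control (0.86 ± 0.23, limma adjusted p = 0.0594) or between nitrate and bleomycin (-0.96).

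Ly6c2, a surface protein of inflammatory monocytes, varied widely between libraries of a group, at 19.4, 0.608 and 1.91 in the controls, 6.45, 3.69 and 8.38 after bleomycin and 3.14, 0.518 and 0.134 with nitrate. Control 1 held the highest value of all libraries and control 2 among the lowest, so the SD of the controls exceeded their mean (7.32 ± 10.5). Bleomycin against control gave 0.59 ± 0.89, limma adjusted p = 0.706, and without control 2 the estimate was -0.16. The nitrate libraries lay below all bleomycin libraries (-1.84 ± 0.89, limma adjusted p = 0.324). Of its 50-base windows 31.2% occur elsewhere, nearly all in Ly6c1, an endothelial gene at 139, 81.5 and 73.9 in the controls, 32.3, 34.7 and 47.4 after bleomycin and 32.6, 61.2 and 30.6 with nitrate. Control 1 also stood above the other controls in Fcgr1 (17.0), in the chemokine gene Ccl7 (40.01, 4.16 and 4.38 in the controls) and in Chil3 (16.6, 0.474 and 1.83).

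The 3 chains of complement C1q, which are made chiefly by macrophages and assemble into 1 protein, were measured in a narrow range of proportions. C1qa measured 87, 97.8 and 62.8 in the controls, 200.4, 126 and 304 after bleomycin and 128, 58.2 and 32.8 with nitrate. C1qb measured 115, 101 and 77.2 in the controls, 194, 137 and 294 after bleomycin and 133, 57.4 and 39.1 with nitrate. C1qc measured 46, 44.4 and 33.5 in the controls, 80.1, 57.6 and 123 after bleomycin and 55.2, 27.1 and 16.9 with nitrate. All bleomycin libraries lay above all controls for each chain. Bleomycin 2 was the lowest and bleomycin 3 the highest of its group for all 3 chains, and nitrate 1 lay near or above bleomycin 2. None of the chains passed the test for bleomycin against control: C1qa gave 1.27 ± 0.49, limma adjusted p = 0.140, C1qb 1.04 ± 0.44, limma adjusted p = 0.174 and C1qc 1.0 ± 0.41, limma adjusted p = 0.166. For nitrate against bleomycin the estimates were -1.56 ± 0.44, limma adjusted p = 0.141 for C1qb and -1.46 ± 0.41, limma adjusted p = 0.141 for C1qc, without overlap, and -1.64 for C1qa, with overlap. Across the 9 libraries the ratio of C1qb to C1qc stayed between 2.12 and 2.50, that of C1qa to C1qc between 1.88 and 2.50 and that of C1qa to C1qb between 0.758 and 1.03.

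The 4 genes of dead-cell clearance and lipid handling were not alike. Trem2, a lipid receptor that signals through Tyrobp, measured 2.41, 1.86 and 1.36 in the controls, 6.42, 4.81 and 8.20 after bleomycin and 3.86, 1.99 and 2.39 with nitrate. The bleomycin libraries did not overlap the others. Trem2 rose by 1.37 ± 0.24 with bleomycin (limma adjusted p = 0.0144), and its difference of nitrate from bleomycin was -1.0 ± 0.24, limma adjusted p = 0.123. Mertk, the receptor kinase by which resident macrophages take up dying cells, measured 6.03, 6.57 and 4.91 in the controls, 5.31, 5.60 and 5.10 after bleomycin and 6.15, 3.92 and 4.64 with nitrate. Its groups overlapped and its estimates were -0.10 ± 0.16, limma adjusted p = 0.708 for bleomycin against control and -0.12 ± 0.16, limma adjusted p = 0.729 for nitrate against bleomycin.

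Apoe, a carrier of lipid that other skin cells make too, was the most abundant of the 38 genes, at 558, 764 and 736 in the controls, 1027, 1123 and 1376 after bleomycin and 1472, 1083 and 1027 with nitrate. Bleomycin and nitrate libraries both lay above all controls and overlapped each other. The estimates were 0.78 ± 0.21, limma adjusted p = 0.0551 for bleomycin, 0.79 ± 0.21, limma adjusted p = 0.0512 for nitrate against control, and 0.02 ± 0.21, limma adjusted p = 0.978 for nitrate against bleomycin. Gpnmb, a glycoprotein of lysosomes in lipid-laden macrophages and of melanosomes in pigment cells, measured 20.6, 18.2 and 19 in the controls, 15.9, 58.9 and 42.1 after bleomycin and 31.3, 43.6 and 70.1 with nitrate. The nitrate libraries lay above the controls (1.21 ± 0.45, limma adjusted p = 0.114), and bleomycin 1 lay below them. Melanocyte genes differed alongside it: Pmel measured 1.40, 2.34 and 7.75 in the controls, 11.5, 17 and 29.96 after bleomycin and 25.1, 9.31 and 51.5 with nitrate, and the mean log2(FPKM + 1) of 5 such genes, chosen after values were seen, was 1.14, 1.36 and 2.29 in the controls, 2.82, 3.23 and 3.87 after bleomycin and 3.38, 2.73 and 4.83 with nitrate. In nitrate against control 2 of those 5 were called higher in limma, Tyrp1 (2.46 ± 0.57, limma adjusted p = 0.0388) and Dct (1.96 ± 0.49, limma adjusted p = 0.0462). The part of pigment cells in the Gpnmb values was not tested.

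Of the 6 tested scavenger receptors and genes of resident dermal macrophages none was called, and 3 had estimates above 0 and 3 below 0 for bleomycin against control. Cd163, the receptor for haemoglobin bound to haptoglobin, measured 7.40, 10.3 and 7.02 in the controls, 6.80, 2.39 and 2.93 after bleomycin and 2.95, 3.73 and 1.11 with nitrate. Every bleomycin and every nitrate library lay below every control, with an estimate of -0.96 ± 0.38, limma adjusted p = 0.150 for bleomycin and -1.43 ± 0.38, limma adjusted p = 0.0531 for nitrate against control. F13a1, the transglutaminase that cross-links fibrin and is carried by resident macrophages, measured 17.2, 28.6 and 18 in the controls, 15.4, 10.5 and 17.8 after bleomycin and 13.9, 10.8 and 3.82 with nitrate. The nitrate libraries lay below all controls (-1.20 ± 0.41, limma adjusted p = 0.0934), while bleomycin 3 overlapped the controls (-0.51 ± 0.41, limma adjusted p = 0.454). Folr2, a folate receptor of perivascular macrophages, measured 2.33, 3.0 and 1.79 in the controls, 1.19, 0.523 and 2.57 after bleomycin and 1.06, 0.177 and 0.646 with nitrate. The nitrate libraries lay below all controls (-1.07 ± 0.33, limma adjusted p = 0.0742), from 5 to 30 reads per library against 48 to 78. None of these 3 differences passed the test.

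Mrc1, the mannose receptor, measured 21.1, 24.9 and 16.6 in the controls, 31.2, 26.1 and 33.7 after bleomycin and 23.1, 12.4 and 6.29 with nitrate. Its bleomycin libraries lay above all others, with 0.53 ± 0.38, limma adjusted p = 0.398 against control, and nitrate against bleomycin gave -1.23 ± 0.38, limma adjusted p = 0.159. Msr1, a scavenger receptor for modified lipoprotein, measured 4.59, 1.74 and 1.29 in the controls, 3.99, 4.75 and 5.29 after bleomycin and 2.31, 0.998 and 0.456 with nitrate. Control 1 overlapped the bleomycin libraries (0.79 ± 0.38, limma adjusted p = 0.223), and the nitrate libraries lay below all bleomycin libraries (-1.41 ± 0.38, limma adjusted p = 0.136). Pf4, a chemokine of platelets that resident macrophages also express, measured 50.7, 37.9 and 20.02 in the controls, 34.5, 23.5 and 60.01 after bleomycin and 19.7, 23.2 and 9.40 with nitrate. Bleomycin and control overlapped (0.11 ± 0.46, limma adjusted p = 0.904), and the nitrate libraries lay just below the bleomycin libraries without passing the test (-1.12 ± 0.46, limma adjusted p = 0.253).

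**Figure D3:**
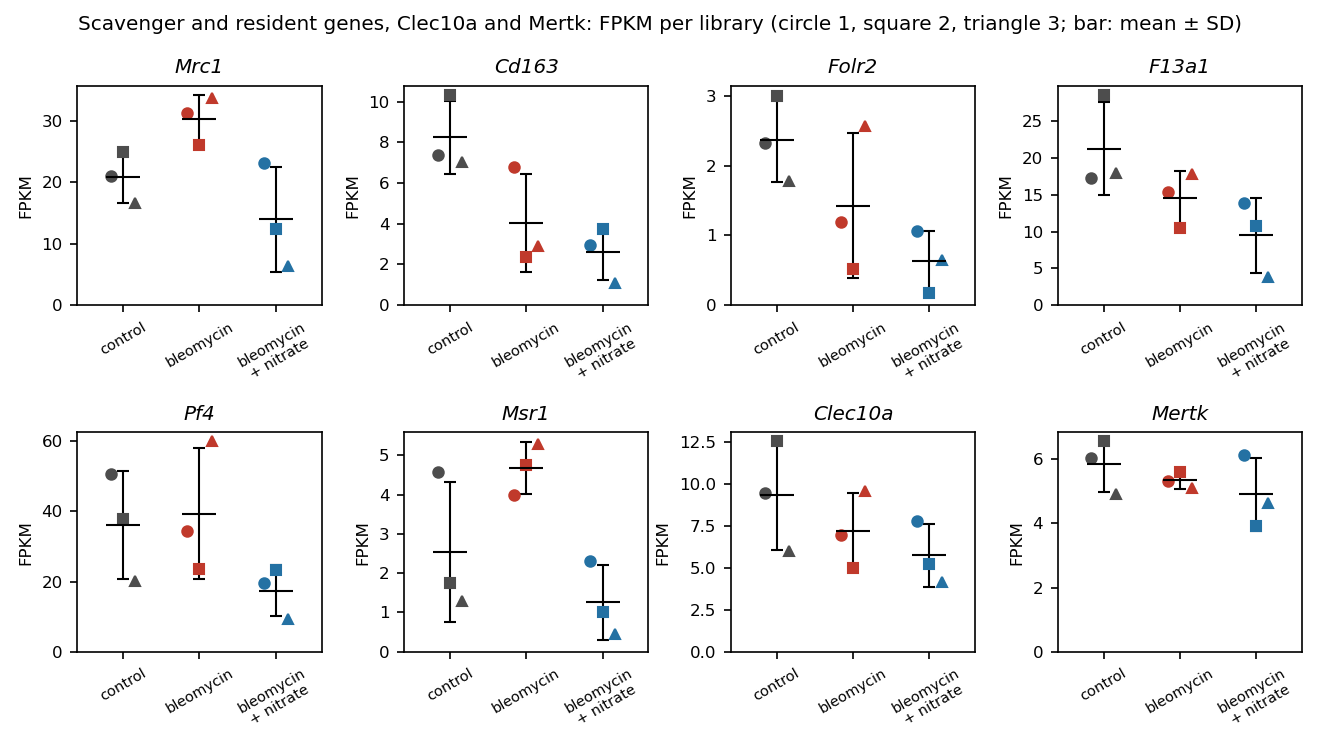
FPKM per library (circle 1, square 2, triangle 3) of 6 scavenger and resident macrophage genes, Clec10a and Mertk, with the mean and SD of each group of 3. Cd163 is below the controls in all bleomycin and nitrate libraries, F13a1 and Folr2 are below the controls in all nitrate libraries, and Mertk lies between 3.92 and 6.57 in all 9.

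Neither gene of the MS4A family, membrane-spanning proteins of monocytes and macrophages, passed the test. Ms4a7 measured 6.93, 3.55 and 2.63 in the controls, 10.5, 7.91 and 17.5 after bleomycin and 8.39, 3.60 and 1.85 with nitrate. The bleomycin libraries lay above the controls (1.28 ± 0.47, limma adjusted p = 0.129), and nitrate 1 lay within the bleomycin range (-1.31 ± 0.47, limma adjusted p = 0.202). Ms4a6c measured 12.4, 5.83 and 7.32 in the controls, 17.9, 12.4 and 22.1 after bleomycin and 9.38, 2.40 and 1.64 with nitrate. Control 1 nearly reached the lowest bleomycin library (0.98 ± 0.49, limma adjusted p = 0.244), and all nitrate libraries lay below bleomycin (-1.99 ± 0.49, limma adjusted p = 0.126). Without nitrate 1 that difference was -2.59, limma adjusted p = 0.0431. A share of 11.3% of the Ms4a6c windows occurs in other genes, foremost Ms4a6b.

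Libraries of a group differed in the general level of these genes. Their mean log2(FPKM + 1) was 4.22, 3.81 and 3.52 in the controls, 4.68, 4.50 and 5.12 after bleomycin and 4.20, 3.48 and 2.99 with nitrate. Bleomycin 3 was the highest of its group in 31 of 37 genes, nitrate 1 in 33 and control 1 in 24, while nitrate 3 was the lowest of its group in 32. The mean over 10 genes shared by all leukocytes, such as Ptprc and Laptm5, was 3.89, 3.38 and 3.28 in the controls, 4.47, 4.40 and 4.93 after bleomycin and 3.88, 3.45 and 2.69 with nitrate, so the same libraries were high in both lists. The macrophage mean exceeded the leukocyte mean by 0.24 to 0.43 in the controls, 0.10 to 0.21 after bleomycin and 0.03 to 0.32 with nitrate. Of the leukocyte genes 2 of 10 rose with bleomycin, Cd52 (1.73 ± 0.33, limma adjusted p = 0.0188) and Itgb2 (1.49 ± 0.34, limma adjusted p = 0.0324), with a median log2 difference of 1.12. In nitrate against bleomycin 0 of 10 were called, with a median of -1.37.

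The level of a gene relative to Csf1r in the same library was chosen as a measure after values were seen and is given as a description, without a test. Of 13 such ratios computed, bleomycin and control did not overlap in 9, with 7 higher and 2 lower after bleomycin, and they overlapped for Mrc1, Adgre1, Ly6c2 and Gpnmb. Nitrate and control did not overlap in 7, with 4 higher and 3 lower with nitrate. Between nitrate and bleomycin 7 overlapped. Without overlap, 1 was higher with nitrate (F13a1) and 5 were lower (Clec4n, Ly6c2, Fcgr3, Fcgr2b and C1qb). The share of all genes whose ratio to Csf1r does not overlap was not computed, so these counts cannot be set against it. Several of the genes divided by Csf1r, such as Clec4n and Trem2, had already been called higher with bleomycin. Clec4n over Csf1r was 0.102, 0.0899 and 0.0896 in the controls, 0.473, 0.786 and 0.590 after bleomycin and 0.250, 0.364 and 0.357 with nitrate. The groups did not overlap, with nitrate between control and bleomycin. Cd163 over Csf1r was 0.252, 0.335 and 0.353 in the controls, 0.141, 0.0689 and 0.0580 after bleomycin and 0.0856, 0.173 and 0.108 with nitrate. F13a1 over Csf1r was 0.586, 0.929 and 0.905 in the controls, 0.320, 0.302 and 0.353 after bleomycin and 0.401, 0.50 and 0.372 with nitrate. Both were lower in every bleomycin and nitrate library than in any control. Trem2 over Csf1r was 0.0818, 0.0606 and 0.0684 in the controls, 0.133, 0.139 and 0.162 after bleomycin and 0.112, 0.0922 and 0.233 with nitrate, higher in every bleomycin and nitrate library than in any control. Mrc1 over Csf1r was 0.716, 0.811 and 0.832 in the controls, 0.648, 0.752 and 0.668 after bleomycin and 0.668, 0.578 and 0.613 with nitrate. It was lower in every nitrate library than in any control, while bleomycin overlapped the controls.

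**Figure D4:**
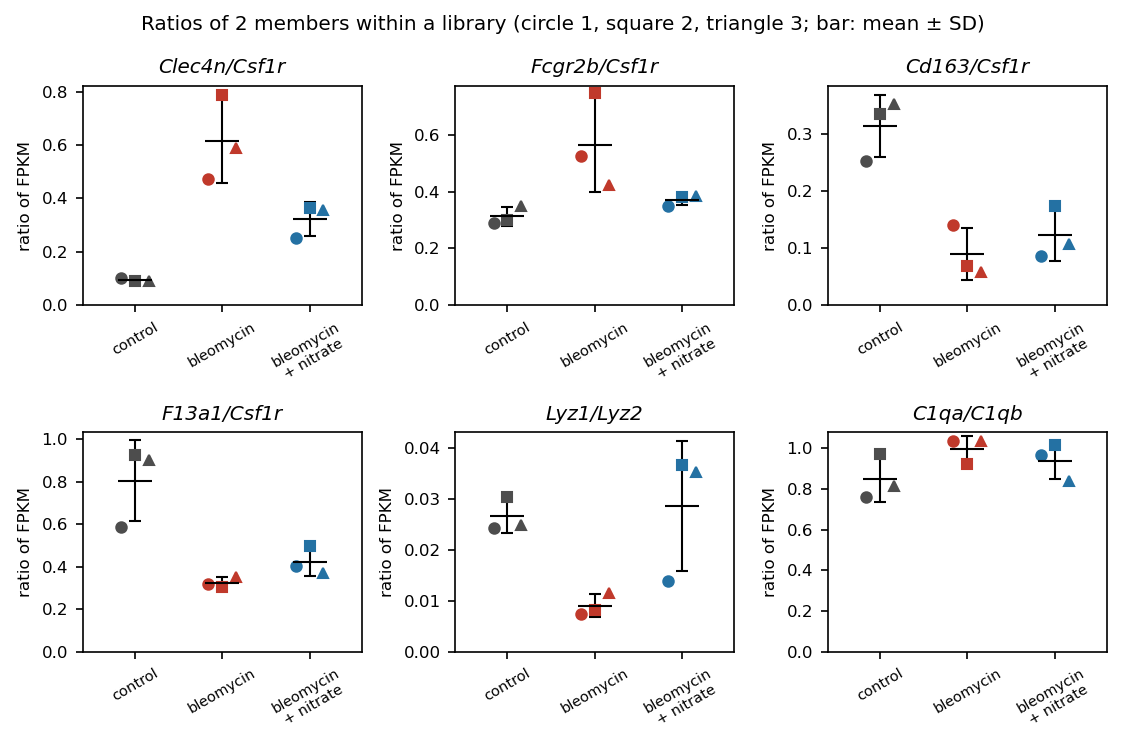
Ratios of FPKM of 2 genes within a library (circle 1, square 2, triangle 3), with the mean and SD of each group of 3. Clec4n over Csf1r runs from 0.0896 to 0.102 in the controls and from 0.473 to 0.786 after bleomycin, with nitrate between them, while Cd163 and F13a1 over Csf1r are lower in every bleomycin and nitrate library than in any control.

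Further genes of macrophage supply, control and activation were counted in 6 lists. Of the growth factors and their receptors, 1 of 4 tested rose with bleomycin, the GM-CSF receptor chain Csf2ra (1.0 ± 0.18, limma adjusted p = 0.0167), and none fell. Csf1 gave 0.03 ± 0.31, limma adjusted p = 0.961 and Il34 -0.44 ± 0.14, limma adjusted p = 0.0966, while Csf2 was below the level tested. Of 8 genes of monocyte recruitment 1 rose, the chemokine receptor Ccr1 (1.99 ± 0.41, limma adjusted p = 0.0235). The monocyte chemokine Ccl8 measured 118, 127 and 69 in the controls, 251, 166 and 388 after bleomycin and 131, 91 and 59.1 with nitrate and did not pass the test (1.32 ± 0.39, limma adjusted p = 0.0768), nor did Ccl12 (1.45 ± 0.48, limma adjusted p = 0.10).

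Of 6 transcription factors tested 1 rose with bleomycin, Cebpb, a factor of inflammatory myeloid cells (0.77 ± 0.16, limma adjusted p = 0.0281). Spi1, which encodes PU.1, gave 1.07 ± 0.31, limma adjusted p = 0.0698. Nr1h3, the oxysterol receptor LXR alpha, measured 11.9, 12.6 and 11 in the controls, 8.76, 7.25 and 9.31 after bleomycin and 6.65, 3.93 and 3.34 with nitrate, and it fell with nitrate against control (-1.22 ± 0.20, limma adjusted p = 0.0176).

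Of 8 genes of alternative activation 2 rose with bleomycin, Il4ra, the receptor chain for Il4 and Il13 (1.31 ± 0.31, limma adjusted p = 0.0369), and Arg1, an arginase that keratinocytes also express (1.45 ± 0.36, limma adjusted p = 0.0453). Retnla, a resistin-like protein, measured 9.39, 20.1 and 12.2 in the controls, 6.86, 5.30 and 7.86 after bleomycin and 6.0, 7.93 and 1.67 with nitrate and gave -0.91 ± 0.44, limma adjusted p = 0.228. Of 6 tested genes of inflammatory activation 3 rose. Il1b, an inflammatory cytokine, measured 1.23, 1.03 and 0.452 in the controls, 29.5, 17.4 and 37.3 after bleomycin and 3.83, 2.15 and 1.05 with nitrate, and every bleomycin library was above every other library. It rose by 3.89 ± 0.36 (limma adjusted p = 0.00253). Ptgs2, the inducible prostaglandin synthase (2.25 ± 0.35, limma adjusted p = 0.00975), and the cytokine Il6 (1.22 ± 0.24, limma adjusted p = 0.0212) were also called, and Nos2 and Il12b were below the level tested.

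Of 13 genes of lysosomes and lipid handling 2 rose with bleomycin, the protease Ctsl (0.95 ± 0.15, limma adjusted p = 0.0112) and the fatty acid carrier Fabp5 (1.54 ± 0.31, limma adjusted p = 0.0220), and 1 fell, the lipase Lpl (-1.11 ± 0.27, limma adjusted p = 0.0393), which fat cells also make. Ctsl was likewise higher and Lpl lower with nitrate than in control skin (0.76 ± 0.15, limma adjusted p = 0.0280 and -1.39 ± 0.27, limma adjusted p = 0.0256). Which skin cells account for the values of Ctsl and Fabp5 was not tested. In nitrate against bleomycin 0 genes of these 6 lists were called. The smallest adjusted p there was that of Il1b (-3.14 ± 0.36, limma adjusted p = 0.0619).

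Markers of other leukocytes also differed between the groups, and several of the 38 genes, such as Itgam, Fcer1g, Cybb, Tyrobp and Lyz2, are known in neutrophils or mast cells too. Of 10 neutrophil markers 4 were tested and all 4 rose with bleomycin in limma, led by S100a9 (7.20 ± 1.14, limma adjusted p = 0.0124), which inflamed keratinocytes make as well, while Ly6g was listed at 0 in all controls. The summed FPKM of the neutrophil list was 10.6 to 31.9 in the controls, 447 to 3200.5 after bleomycin and 20.8 to 181 with nitrate. Of 8 mast cell markers 6 rose, with sums of 58.2 to 108, 179 to 239 and 95.5 to 186. T cell markers rose in 4 of 7 tested, with sums of 16.6 to 20.6, 46.9 to 57.2 and 30.8 to 43.4. Langerhans and dendritic cell markers rose in 3 of 6 tested, with sums of 34.2 to 51, 61.9 to 97.3 and 85.3 to 90.1. In 2 of those 6 the estimate for bleomycin against control lay below 0, the lowest at -0.51, and none was called lower. None of 5 B and plasma cell markers was tested. The part of these other leukocytes in the values of the 38 genes was not tested.

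**Figure D5:**
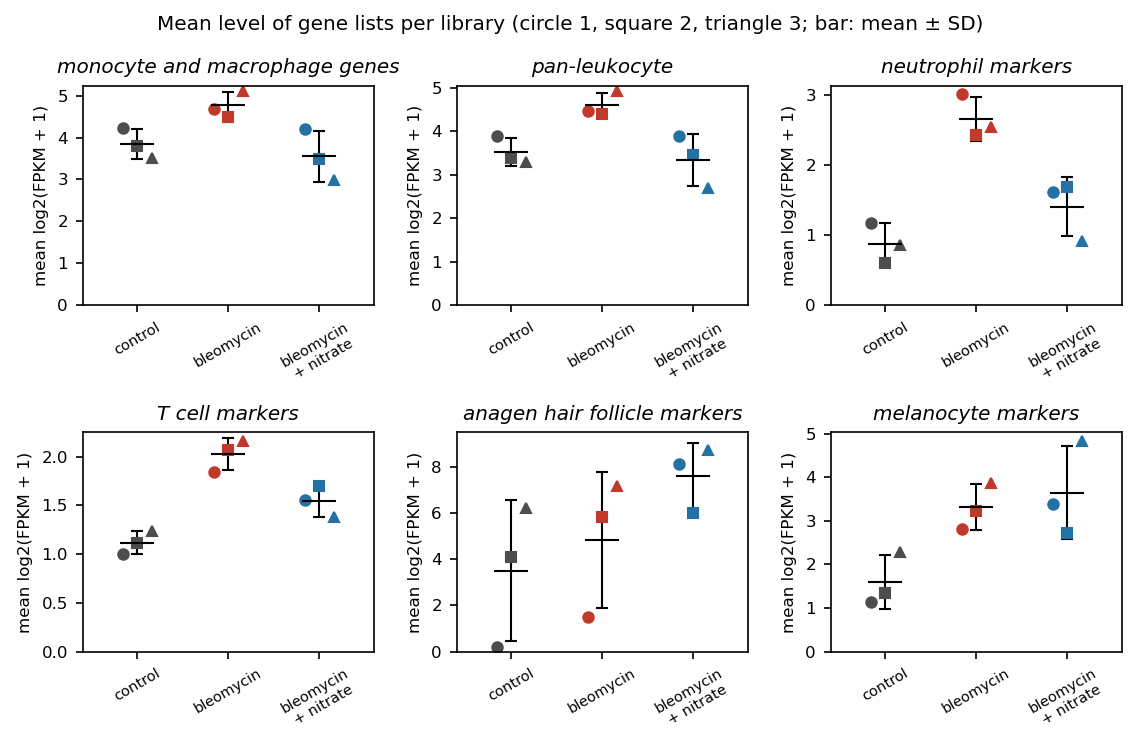
Mean log2(FPKM + 1) of 6 gene lists per library (circle 1, square 2, triangle 3), with the mean and SD of each group of 3. The macrophage and leukocyte lists are highest in bleomycin 3 and lowest in nitrate 3, while the hair follicle list is lowest in control 1 and bleomycin 1.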

How the data were processed

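RNA was sequenced from 9 skin libraries in 3 groups of 3, taken from the sample titles. The authors deposited 1 table of FPKM values for 54532 genes, and the genome build was mm10 per the submitters' processing notes with the aligner and counting tool not given in the sources used here. Multiplied by gene length, every FPKM value was a whole multiple of 1 step per library within 0.01, which gave whole reads. These are not identified molecules, so the allowance of 3 reads for a count of 0 covers counting error only. The library size implied by the step was 0.916 to 1.09 times the summed reads, a scaling by an unstated method.

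The 38 genes and all other gene lists were chosen with earlier results of these data known, and the melanocyte list, the sequence neighbours and the ratios to Csf1r after values were seen. The FPKM table as deposited was tested on log2(FPKM + 1) in limma 3.58.1 (R 4.3.3; eBayes with trend and robust), as 1 fit of 3 group means over the 14645 genes with at least 1 FPKM in at least 3 libraries. Tests were two-sided, with Benjamini-Hochberg adjustment over all genes of a comparison and a call under 0.05. Differences on this scale understate the change of genes with low values. Named with full values were genes called, or with groups that did not overlap and an absolute log2 difference of at least 1. Adgre1, Apoe, Clec10a, Fcgr1, Lyz1, Mertk and Sirpa, outside this rule, were added as examples of their roles with values seen. A symbol given to several genes (102 symbols) was read as the gene of highest mean. Shared sequence was counted as 50-base windows of GENCODE transcripts, and start regions came from RefSeq (GRCm38.p6). The fit was tested on simulated data. Alternatives were other pseudocounts (0.1 and 0.5), no filter, a mean of at least 5 FPKM, other scaling, 2 groups only, a replicate block, voom on recovered reads and leaving out libraries. Figures were drawn with matplotlib 3.10.9. One gene was left out of the lists and their counts and is not reported here.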

Additional observations from a re-analysis of the deposited data

How the results depend on the processing

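Genes called for bleomycin against control numbered 8. They were 3 with no filter on low values, 5 with a replicate block, 2 without control 1 and bleomycin 1 together, 2 to 13 with 1 library left out, and 6 to 12 in the other alternatives. For nitrate against bleomycin the count was 0, and 0 to 4 with 1 library left out (4 without nitrate 1). For nitrate against control it was 1. It became 0 with no filter, 0 with only 2 groups, 0 with a replicate block, 0 without control 1 and bleomycin 1 together, 2 with a mean of at least 5 FPKM, 2 with median-of-ratios scaling, 3 with quantile normalization, 3 with voom, and 0 to 2 with 1 library left out. The share of all genes called in each alternative is not given here, so these counts cannot be set against it. The cause of these changes was not tested. The median differences of the 37 genes kept their sign: 0.80 to 1.27, -1.77 to -1.08 and -0.69 to -0.08 with 1 library left out. Voom moved the median of all genes by 0.13 for bleomycin and 0.18 for nitrate against control.

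Some estimates changed sign, none of them called. Not all were near 0 in the main fit, where Ly6c2 stood at 0.59 for bleomycin against control and Gpnmb at 0.41 for nitrate against bleomycin. Lyz1 against control was 0.0042 by voom and 0.11 without control 1 and bleomycin 1 together, and that omission gave -0.0022 for Lyz1, -0.12 for Gpnmb and -0.077 for Apoe in nitrate against bleomycin. With 1 library left out, bleomycin against control ran from -0.16 to 1.67 for Ly6c2, -0.47 to 0.12 for Lyz1 and -0.25 to 0.42 for Pf4, and nitrate against bleomycin from -0.0022 to 0.59 for Lyz1, -0.27 to 0.0036 for Mertk, -0.12 to 0.79 for Gpnmb and -0.15 to 0.13 for Apoe. Signs were least stable in nitrate against control. Over all alternatives 36 of 697 estimates changed sign there, in 14 genes. The counts were 8 in 3 genes for bleomycin against control and 9 in 4 genes for nitrate against bleomycin. Nitrate against control ran from -0.88 to 0.09 for C1qa, -0.55 to 0.42 for Cd14 and -0.67 to 0.30 for Cybb.

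Whether replicate numbers pair the libraries was not settled: deviations of same-numbered libraries correlated from -0.39 to 0.52, above 0.1 in 5 of 9 pairs. With 3 libraries a group, such correlations cannot exclude a pairing or a shared batch. Depth limits the values that rest on few reads, such as those of Marco (0 to 13 reads per library) and Folr2 (5 to 78).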
